A study of Mus musculus with 6 samples.

Results

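The retinal cells described here were a small population of cone bipolar cells marked by Adarb2, Cntn5 and Gabrr3. They were picked barcode by barcode from raw counts of unique molecular identifiers (UMIs, 1 per captured mRNA molecule). A barcode was kept with 500 to 5000 detected genes and at most 20% mitochondrial counts. A kept barcode was a member when at least 3 of Adarb2, Cntn5, Gabrr3, Nwd2, Tmem200a and Pcdh17 had a UMI and when Sebox, Kcng4, Tfap2b and Arr3 had none. Of 38569 kept barcodes, 447 were members, which is 1.16%.

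The 6 libraries came from dissociated mouse retinas at postnatal day (P) 17, each pooled from 2 mice. The 3 OIR libraries were from pups with oxygen-induced retinopathy, a model in which high oxygen halts and prunes retinal vessels and the return to room air leaves the inner retina short of oxygen. Oxygen was held at 75% between P7 and P12, and room air followed for 5 days, and the 3 control libraries were from normal P17 pups. The strain, genotype and sex of the sequenced pups were not given in the sources used here, and the labels name retinal endothelial cells although the suspension was made from whole retina. The files held 165647166 UMIs in 47631 barcodes, between 15788524 and 42606878 UMIs per library.

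Bipolar cells carry the signal of photoreceptors to amacrine and ganglion cells. ON bipolar cells read glutamate through mGluR6, encoded by Grm6, which acts through the G protein Go on the cation channel encoded by Trpm1, so that they depolarise when light lowers glutamate release. OFF bipolar cells use ionotropic receptors such as the kainate receptor subunit encoded by Grik1, and rod bipolar cells are ON cells that serve rods and carry Prkca and Sebox. Bipolar cells lie in the inner nuclear layer, which is fed by the vessels that are lost in this model.

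The members were unevenly spread over the libraries. There were 110, 38 and 33 members in OIR libraries 1, 2 and 3 and 222, 24 and 20 in control libraries 1, 2 and 3, so that control replicate 1 alone held 49.7% of them. They were deeply sequenced cells, with a median of 8218.5, 7839 and 9141 UMIs per member in the OIR libraries and 6431.5, 7780 and 7041 in the controls, against medians between 1449.5 and 4850 over all kept barcodes of a library. The sums over members held 906445, 256298 and 275071 UMIs in the OIR libraries and 1373021, 166009 and 151340 in the controls. The median mitochondrial share of a member was 7.35% in OIR replicate 1 and 8.55% in control replicate 1 but between 2.82% and 3.78% in the other 4 libraries.

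Some libraries stood apart in ways that the groups do not explain. Members of control replicates 2 and 3 held Xist at 4765 and 3390 CPM (UMI counts of a gene scaled to the sum of the library's counts in those cells) and had 0 Y-linked UMIs, whereas members of the other 4 libraries held Y-linked genes at 236 to 289 CPM. Both Xist libraries were controls, so that sex and group were partly confounded. In a fit with a term for sex the OIR effect rests on the 3 OIR libraries against control replicate 1 alone. Counts of alternatives in which a gene was called include this fit. On the first principal component of the members' sums (35.9% of the variance) control replicate 3 lay at -34.0, with the other libraries between -4.18 and 12.9. Control replicate 2 stood apart on the second component, at -28.0. Barcode sequences shared between libraries numbered 161 among kept barcodes, of which 2 were members in one library, and none was a member in both. No doublet caller was run here.

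Counts of microglia and amacrine genes sat mainly in a few barcodes, and counts of rod genes in nearly all. The median number of UMIs of the rod list per member lay between 27 and 61.5 in the 6 libraries, and that of a Müller list between 1 and 4. In OIR replicate 1, 1 member held 264 UMIs of a list of 7 microglia genes, out of 282 in the 110 members of that library, and the list's most abundant gene was C1qb. In control replicate 3 a list of 9 amacrine genes summed to 1401 CPM, against 54.6 to 223 CPM in the other 5 libraries. Leaving out every member with at least 10 UMIs of either list kept 436 members. Counts of called genes that moved with these barcodes are given with and without them.

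Whether OIR changed the number of these cells was asked from their share of kept barcodes. The share was 1.82% (95% exact binomial interval 1.495% to 2.19%), 0.691% (0.489% to 0.947%) and 0.442% (0.304% to 0.620%) in OIR libraries 1, 2 and 3. It was 3.11% (2.72% to 3.54%), 0.447% (0.287% to 0.664%) and 0.285% (0.174% to 0.439%) in control libraries 1, 2 and 3. In both groups replicate 1 was far above replicates 2 and 3, and the groups overlapped. The mean was 0.983% ± 0.732 (SD, n = 3) in OIR and 1.28% ± 1.58 (SD, n = 3) in control retinas, with a p of 0.9 in a two-sided exact permutation test whose smallest possible p is 0.1. Without control replicate 1 the difference turned to 0.617 percentage points higher in OIR (exact permutation p = 0.4). The intervals cover counting error only.

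Detecting 3 of 6 genes depends on depth, so the share was also counted after each barcode was thinned to 1000 UMIs. It then was 0.347%, 0.124% and 0.136% in OIR libraries 1, 2 and 3 and 0.792%, 0.137% and 0.0160% in control libraries 1, 2 and 3, the last from 1 member. Replicate 1 remained the highest of each group. Group means of 0.202% and 0.315% did not differ beyond the spread between libraries (exact permutation p = 0.8).

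**Figure D1:**
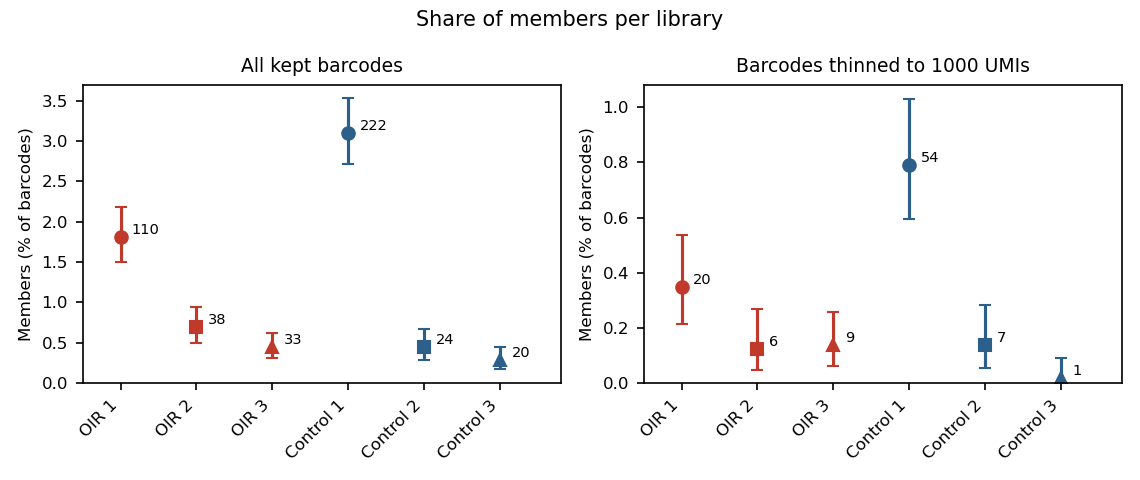
Percentage of barcodes that were members in each library, as counted (left) and after thinning to 1000 UMIs (right), with exact 95% binomial intervals as bars and the number of members beside each point. OIR libraries are red and control libraries blue, and replicate 1 of each group lies above replicates 2 and 3 in both panels.

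The genes of the rule were found in most but not all members, which the choice of cells fixes in part and which is given as a description. Cntn5, encoding a neural adhesion molecule of the contactin family, had a UMI in 391 of 447 members and stood at 413 ± 80.3 CPM (mean ± SD over 6 libraries). Gabrr3, a subunit of GABA-gated chloride channels, was found in 372 members at 291 ± 33.5 CPM. Adarb2, of the family of RNA-editing deaminases, was found in 364 members at 358 ± 80.3 CPM. Pcdh17, a protocadherin, was found in 351 members, Nwd2 in 259 and Tmem200a in 208. All 6 genes were detected in 66 members, 5 in 137, 4 in 132 and 3 in 112.

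The exclusion genes removed 225 of 672 barcodes that had at least 3 of the marker genes. Sebox removed 158 of these, Arr3 47, Kcng4 25 and Tfap2b 6, some by more than 1 gene. Just inside the threshold, the 112 members with 3 marker genes held Grm6 at 382 CPM, Trpm1 at 145 CPM, Grik1 at 150 CPM and Gabrr2 at 35.4 CPM. Just outside it, 310 barcodes with 2 marker genes and none of the exclusion genes held Grm6 at 736 CPM, Trpm1 at 717 CPM, Grik1 at 353 CPM and Gabrr2 at 141 CPM. The 335 members with 4 or more marker genes held Grik1 at 5.21 CPM.

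Whether the members were bipolar cells of the ON or the OFF kind was checked against genes that the rule did not use. Grm6 or Isl1, the genes by which ON cone bipolar cells are told from OFF cells, was detected in 418 members, of which 407 lacked Grik1 and 11 had it. Grik1 alone was detected in 10 members and none of these 3 genes in 19. OIR replicate 2 stood apart here, with 27 of 38 members that had an ON gene and no Grik1, 3 with Grik1 alone and 6 with none. Grik1 stood at 211 CPM in the members of that library and at 0 to 72.8 CPM in those of the other libraries. At 1000 UMIs per barcode Grm6 was found in 39.2% and Isl1 in 47.8% of members, against 1.83% and 2.83% of the cells with OFF genes that are called Grik1 group below. In the rod bipolar cells described below the shares were 54.2% and 72.5%, so that Grm6 and Isl1 do not tell cone from rod bipolar cells. Members lacked the rod bipolar gene Sebox by the rule. The OFF genes Grik1, Tacr3, Lhx3 and Vsx1 were all too low to pass the filter on low counts. At this depth the shares with an ON gene thus lay above those in cells that should lack them, and the label of bipolar cells was met least in OIR replicate 2.

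Within the mGluR6 cascade the members had an uneven set of parts. They are compared with 2139 rod bipolar cells (Sebox and Prkca detected), 505 cells with at least 2 of Kcng4, Htr3a and Sox6, called Kcng4 group here, and 608 cells with at least 2 of Grik1, Otor and Fezf2, called Grik1 group here. Barcodes with 3 or more of the marker genes were left out of these groups, so that they share none with the members. Levels are means over 6 libraries for 1 gene at a time, with no test, since the cells were chosen by their genes. Grm6 stood at 518 CPM in members, 922 in rod bipolar cells, 1035 in the Kcng4 group and 55.0 in the Grik1 group. The transcription factor gene Isl1 stood at 748 CPM in members, 2005 in rod bipolar cells, 874 in the Kcng4 group and 83.2 in the Grik1 group. For both genes the members were above the Grik1 group and below the other ON groups.

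Trpm1, the channel at the end of the cascade, did not follow Grm6. Its level in members was 36.4, 70.2 and 14.5 CPM in OIR libraries 1, 2 and 3 and 112, 193 and 59.5 CPM in control libraries 1, 2 and 3. In rod bipolar cells the mean was 3718 CPM and in the Kcng4 group 652 CPM, while the Grik1 group held 109 CPM. Within a library, members had 0.368% to 4.85% of the rod bipolar level and 3.34% to 23.9% of the level in the Kcng4 group. Against the Grik1 group the range was 15.3% to 177%, and members lay below it in all 3 OIR libraries and above it in all 3 controls.

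Shares of cells were also compared at equal depth. After thinning to 1000 UMIs, Trpm1 was detected in 7.06% of 439 members, 82.4% of rod bipolar cells, 51.0% of the Kcng4 group and 7.32% of the Grik1 group. As a mean over the libraries it was 7.80% in members and 4.56% in the Grik1 group, with members higher in 4 of 6 libraries, and the counts were small (31 of 439 and 44 of 601 cells). So no order of members and the Grik1 group is read from these shares, while both lay far below the other groups. Without thinning it was 25.7% in members. Grm6 at the same depth was detected in 39.2% of members, 54.2% of rod bipolar cells, 60.7% of the Kcng4 group and 1.83% of the Grik1 group. Both Trpm1 and Grm6 had a UMI in 94 members, out of 372 with Grm6, but without thinning Trpm1 was as frequent in the Grik1 group (26.8%), so that no joint expression is read from this count.

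G protein subunits of the cascade were well expressed. Gnb3, the beta subunit of Go in ON bipolar cells, stood at 2394 CPM in members, 2150.2 in rod bipolar cells, 1493 in the Kcng4 group and 401 in the Grik1 group. Gng13, the gamma subunit that pairs with it, stood at 2529 CPM in members, 4934 in rod bipolar cells, 1764 in the Kcng4 group and 151 in the Grik1 group. Pcp2, which binds Go alpha subunits, stood at 3413 CPM in members, 10248 in rod bipolar cells, 884 in the Kcng4 group and 361 in the Grik1 group. These genes set the members apart from the Grik1 group in the same direction as Grm6 did.

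Genes of the regulator complex at the ON dendrite varied. Gpr179, the orphan receptor that anchors RGS proteins there, stood at 232 CPM in members and 660 in rod bipolar cells. Nyx, encoding nyctalopin, a protein needed to place the channel, stood at 37.6 CPM in members, 27.1 in rod bipolar cells and 101 in the Kcng4 group. Rgs11, a GTPase activator of the cascade, stood at 150 CPM in members, 205 in rod bipolar cells and 70.3 in the Kcng4 group. Outside this complex Gngt1, a rod gene for the gamma subunit of transducin, stood at 4079 ± 996 CPM (SD over 6 libraries) in members against 1993 in rod bipolar cells, 1250.3 in the Kcng4 group, 1386 in the Grik1 group and 6289 in all other kept barcodes.

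**Figure D2:**
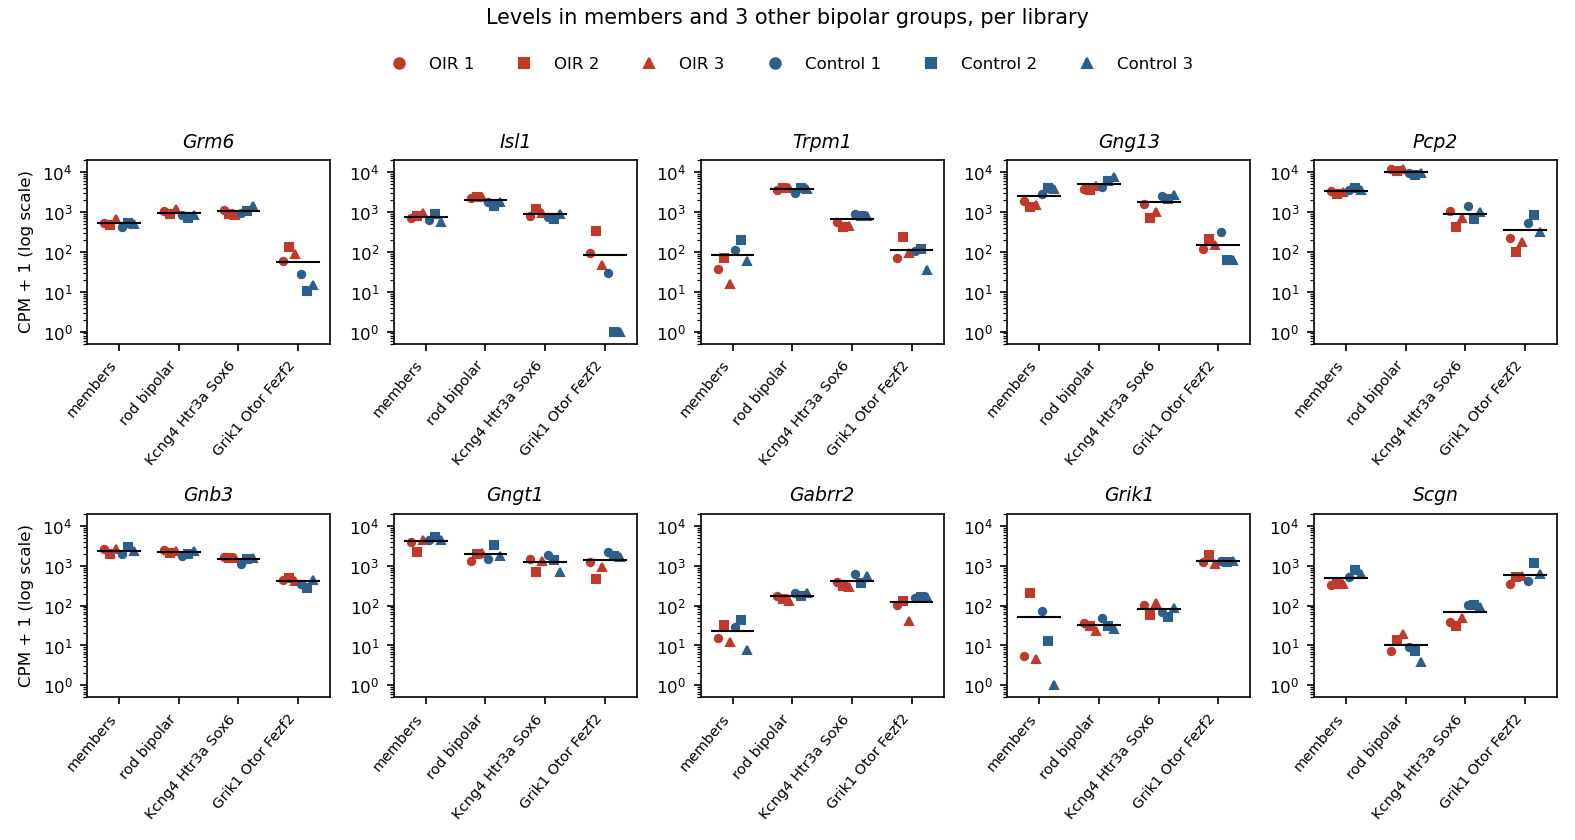
Level of 10 genes (CPM + 1, log axis) in members and 3 other bipolar groups, with 1 point per library and the mean of 6 libraries as a line. Trpm1 in members lies beside the Grik1 group and far below rod bipolar cells, whereas Grm6, Isl1, Gng13 and Gnb3 lie with the ON groups.

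GABA is the transmitter by which amacrine cells inhibit bipolar terminals, in part through receptors with subunits encoded by Gabrr1 and Gabrr2. Gabrr1 stood at 296 CPM in members, 372 in rod bipolar cells, 205 in the Kcng4 group and 380 in the Grik1 group. Gabrr2 stood at 22.2 CPM in members, 173 in rod bipolar cells, 421 in the Kcng4 group and 126 in the Grik1 group, the members' values lying between 6.61 and 42.2 CPM. The calcium-binding protein gene Scgn stood at 488 CPM in members and 600 in the Grik1 group but at 9.09 in rod bipolar cells and 68.4 in the Kcng4 group. Lhx4, a transcription factor gene of cone bipolar cells, stood at 605 CPM in members and 112 in rod bipolar cells.

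Genes at 100 CPM or more in members numbered 1976. The 15 highest relative to the mean over the 3 compared bipolar groups, after 10 CPM was added to both, are given as a further description, without rule, sex-linked, mitochondrial and ribosomal protein genes and unnamed symbols. Gas1, encoding a membrane protein that binds Hedgehog ligands, led with a ratio of 10.9 at 326 ± 103 CPM. Chrm2, a muscarinic acetylcholine receptor, followed with 9.30, and Rbp4, the retinol-binding protein, with 9.25. Cxcl14, a chemokine with a ratio of 9.08, rested on control replicate 3, where it stood at 615 CPM against 5.83 to 66.3 CPM in the other 5 libraries. Without the members that held microglia or amacrine UMIs, Cxcl14 stood at no more than 11.04 CPM in any library, and Snhg11 at 17.1 to 207 CPM where it had stood at 101 to 509 CPM. Pcdh8, a protocadherin, had a ratio of 7.65 and lay between 105 and 171 CPM in every library. The others were Ddit4l (7.52), Rwdd3 (6.40), St6gal2 (6.13), Ryr3 (5.71), Cabp2 (5.42), Trpc4 (4.98), Snhg11 (4.71), Plxdc2 (4.20), C1ql3 (4.16) and Tmem108 (4.004). They include channels for calcium release or entry (Ryr3, Trpc4), a calcium-binding protein of bipolar cells (Cabp2) and a secreted synaptic organiser (C1ql3).

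The main comparison asked which genes of these cells differed between OIR and control retinas. Raw counts were summed over the members of each library, and the sums entered a quasi-likelihood test in edgeR. A call needed an adjusted p (Benjamini-Hochberg, over all genes tested) below 0.05, together with a change of no less than 0.25 on the log2 scale. Of 4849 genes tested, 23 were called (0.474%), 13 higher (0.268%) and 10 lower (0.206%) in OIR members. Values of the groups did not overlap in 607 genes (12.5%), and 342 genes had an unadjusted p under 0.05 (7.05%). The median log2 fold change over all tested genes was -0.01. With the replicate number as a block 27 were called higher and 21 lower, the 21 named genes below among them.

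The calls were few and sensitive to single libraries and barcodes. Without OIR replicate 2 only 1 gene was called higher and 0 lower (edgeR), without control replicate 1 there were 24 and 35, and without control replicate 3, the library that stood apart, 17 and 20. Keeping barcodes above 5000 genes (461 members) left 0 calls in either direction at the same threshold in edgeR, with 384 genes at an unadjusted p under 0.05. All 21 named genes below kept their direction in every alternative in which they were tested, but each lost the call in some. Hmgb2 was called in 18 of 19, whereas Pfkp was called in 9 of 21 and Galk1 in 8 of 18. The size moved by over 1.5 times in some alternative for Jun, Bnip3, Fabp5, Cox4i2, Glul, Dbp and Gng13, the last of which had -1.89 in members with at most 2 UMIs of other cell types' lists against -1.14 in all. The same 21 were all called again without the members that held microglia or amacrine UMIs.

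The first group of genes is known to respond to low oxygen. Of 23 tested genes of a list of 30 hypoxia genes, Egln1, Hk2, Ndrg1 and Bnip3 were called higher and none lower. A further 13 had a positive and 6 a negative log2 fold change, and the median of the list was 0.32 against -0.01 over all genes. All 9 genes of the list with an unadjusted p under 0.05 were higher in OIR. In replicates 2 and 3 alone the median was 0.09 and 1 gene was called higher. The number called higher was 6 with the replicate block and 6 without the members that held microglia or amacrine UMIs.

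Egln1 encodes the prolyl hydroxylase that marks HIF-1α for degradation when oxygen is present. Its level was 291, 269 and 175 CPM in OIR libraries 1, 2 and 3 and 86.7, 120 and 99.1 CPM in control libraries 1, 2 and 3. All OIR values lay above all control values, and Egln1 rose by 1.34 ± 0.24 (log2 fold change ± SE, n = 3 and 3, edgeR adjusted p = 0.0143). Bnip3, a receptor for the removal of mitochondria, stood at 496, 449 and 356 CPM in the OIR libraries and at 154, 199 and 304 CPM in the controls. Its groups did not overlap although the third libraries came close, and it rose by 1.08 ± 0.24 (edgeR adjusted p = 0.0444), called in 10 of 21 alternatives and at 0.67 in replicates 2 and 3 alone. Ndrg1, a stress-responsive gene induced in low oxygen, stood at 195, 312 and 222 CPM in the OIR libraries and at 119, 102 and 52.9 CPM in the controls. Here OIR replicate 2 was the highest and control replicate 3 the lowest, and the log2 fold change was 1.20 ± 0.25 (edgeR adjusted p = 0.0374). With the sex term, which leaves control replicate 1 as the only control, its log2 fold change was 0.93. Ndrg1 was called in 10 of 20 alternatives.

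Of the genes of glycolysis, a hexokinase and a phosphofructokinase gene rose. Hk2, the hexokinase isoform that binds mitochondria, stood at 136, 89.7 and 40.0 CPM in OIR libraries 1, 2 and 3 and at 24.0, 12.05 and 33.0 CPM in control libraries 1, 2 and 3. OIR replicate 3 lay close to control replicate 3, each from few UMIs (11 and 5), and Hk2 rose by 2.00 ± 0.40 (edgeR adjusted p = 0.0287). Pfkp, a phosphofructokinase, stood at 661, 570 and 454 CPM in the OIR libraries and at 315, 265 and 244 CPM in the controls. Its groups were well apart, with a log2 fold change of 0.99 ± 0.22 (edgeR adjusted p = 0.0444). With the sex term the log2 fold change of Pfkp was 0.79, and it was called in 9 of 21 alternatives. Of 19 tested genes in a list of 20 glycolysis genes, Hk2 and Pfkp were the ones called, 14 were positive and 5 negative, and the median was 0.34. Without control replicate 3 the median was 0.21 and 1 gene was called, and with the sex term the median was 0.215. In replicates 2 and 3 alone 1 was called higher and 1 lower. Hk2, Pgk1, Ldha, Slc2a1, Aldoa, Aldoc, Tpi1 and Eno1 stand in both lists, so that the lists are not independent.

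Several neighbours in these lists missed the threshold. Pgk1, phosphoglycerate kinase, stood at 879, 784 and 963 CPM in OIR members and at 511, 602 and 456 CPM in control members, with a log2 fold change of 0.73 and an edgeR adjusted p of 0.138. Higd1a, a mitochondrial protein induced in low oxygen, stood at 898, 663 and 633 CPM in OIR and at 339, 470 and 396 CPM in control members (log2 fold change 0.89, edgeR adjusted p = 0.062, and 0.0241 with the replicate block). For both genes the groups did not overlap. The lactate carrier gene Slc16a3 did overlap, at 146, 191 and 65.4 CPM against 29.9, 90.4 and 46.3 CPM (log2 fold change 1.59, edgeR adjusted p = 0.0582, and 0.00404 with the block). These 3 genes were picked after their values were seen. In the opposite direction Eno2, the neuronal enolase, stood at 135, 58.5 and 80.0 CPM in OIR and at 159, 181 and 172 CPM in control members, and was not called (log2 fold change -0.76, edgeR adjusted p = 0.38). It was picked in the same way.

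Promoters of the called hypoxia and glycolysis genes are shown because HIF binds the letters ACGTG or GCGTG in front of its target genes. The 180 bases from 250 to 71 bases before the start of the gene were taken from RefSeq on build GRCm38.p6 for 4 of 6 genes looked up, and Ndrg1 and Cox4i2 are named only. They lie on the minus strand at chr8:124949325-124949504 (Egln1), chr7:138909577-138909756 (Bnip3), chr6:82774525-82774704 (Hk2) and chr13:6648842-6649021 (Pfkp), and are written 5′ to 3′ in the direction of the gene. Capitals mark ACGTG or GCGTG on either strand, read as CACGT or CACGC on the other.
Egln1: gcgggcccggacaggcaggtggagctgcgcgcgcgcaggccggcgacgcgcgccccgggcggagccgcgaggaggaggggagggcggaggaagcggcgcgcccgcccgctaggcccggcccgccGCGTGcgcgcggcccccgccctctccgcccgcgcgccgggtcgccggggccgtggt
Bnip3: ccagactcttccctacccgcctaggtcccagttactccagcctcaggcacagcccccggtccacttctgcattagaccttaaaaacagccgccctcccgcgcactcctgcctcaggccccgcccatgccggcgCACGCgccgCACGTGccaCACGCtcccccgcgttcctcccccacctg
Hk2: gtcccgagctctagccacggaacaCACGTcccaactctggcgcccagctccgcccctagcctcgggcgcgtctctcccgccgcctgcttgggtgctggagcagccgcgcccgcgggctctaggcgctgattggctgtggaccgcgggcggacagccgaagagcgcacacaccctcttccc
Pfkp: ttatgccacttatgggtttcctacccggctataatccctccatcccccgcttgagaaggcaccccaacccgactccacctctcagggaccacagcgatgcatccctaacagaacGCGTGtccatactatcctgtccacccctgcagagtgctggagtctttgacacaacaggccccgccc

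The Bnip3 stretch held 4 matches, of which a pair overlap in CACGTG, which is the same on both strands and is also an E-box. The stretches of Egln1, Hk2 and Pfkp held 1 match each. Of 32851 RefSeq promoter stretches of the same length and place, 28.2% held at least 1 match, so that a match is common and is given as a description of the sequence.

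Cox4i2, an isoform of subunit 4 of cytochrome c oxidase that is induced in low oxygen, was the called member of the oxidative phosphorylation list. It stood at 107, 50.7 and 50.9 CPM in OIR libraries 1, 2 and 3 and at 23.3, 30.1 and 6.61 CPM in control libraries 1, 2 and 3. The groups did not overlap, the last control value came from 1 UMI, and Cox4i2 rose by 1.77 ± 0.40 (edgeR adjusted p = 0.0444), called in 9 of 18 alternatives and at 1.14 without OIR replicate 1. No other gene of this list was called. Of 74 tested nuclear genes for the respiratory chain, 62 had a negative and 12 a positive log2 fold change, with a median of -0.21. With a term for the sex of the pools 45 were negative and 29 positive, with a median of -0.07. In replicates 2 and 3 alone the median was -0.28, Cox4i2 was not called and 2 genes were called lower, and without control replicate 3 none was called.

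**Figure D3:**
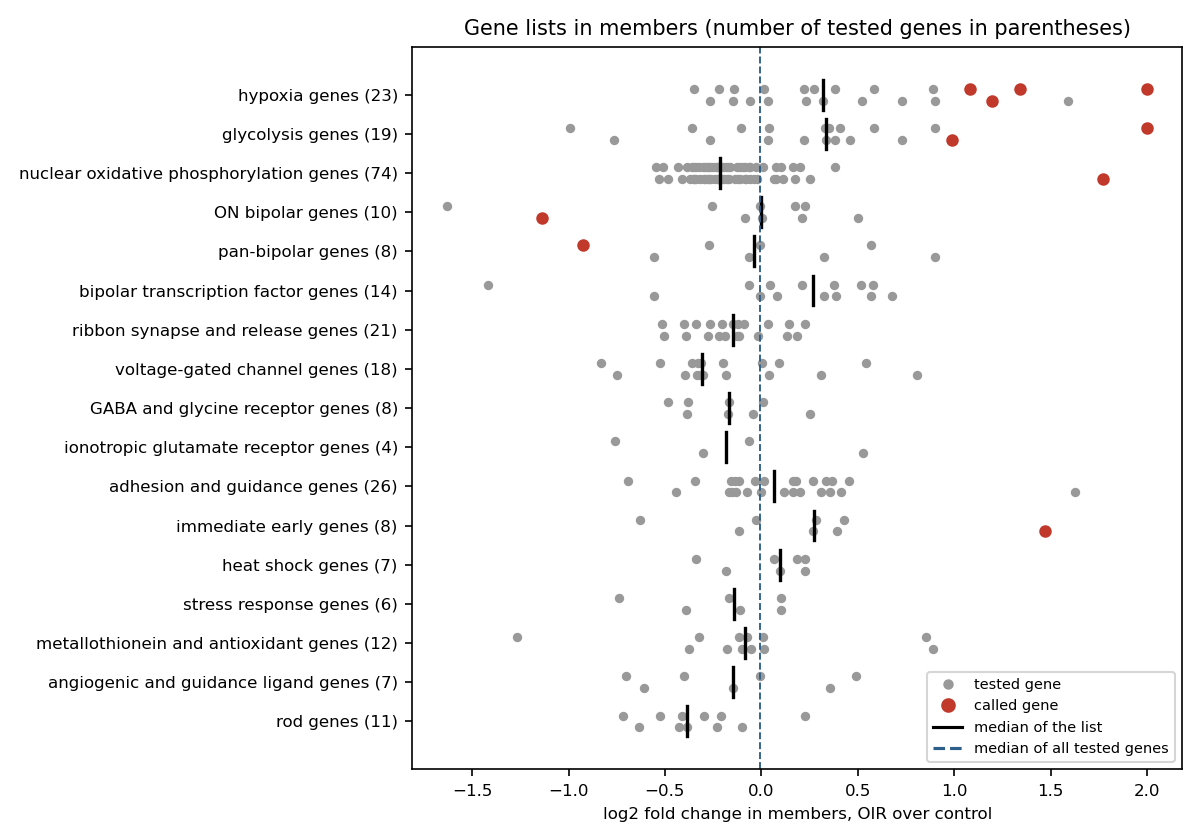
Log2 fold change (OIR over control, edgeR) of each tested gene of 17 lists in members, with called genes in red, a black bar at each list's median and a dashed line at the median of all tested genes (-0.01). The medians of the hypoxia (0.32) and glycolysis (0.34) lists lie to the right of that line and the median of the oxidative phosphorylation list (-0.21) to its left, with genes of each list on both sides.

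Hmgb2, a chromatin protein of the high mobility group, stood at 142, 121 and 127 CPM in OIR libraries 1, 2 and 3 and at 37.9, 24.1 and 26.4 CPM in control libraries 1, 2 and 3. It had the lowest p of all 4849 genes and rose by 1.93 ± 0.29 (edgeR adjusted p = 0.00435), and it was called in 18 of 19 alternatives. Its control values rest on 52, 4 and 4 UMIs. Jun, a subunit of the transcription factor AP-1, stood at 152, 113 and 105 CPM in OIR and at 54.6, 36.1 and 19.8 CPM in control members, with 6 and 3 UMIs behind the last values of the controls. The groups were apart, and Jun rose by 1.47 ± 0.30 (edgeR adjusted p = 0.0287). It was called in 11 of 19 alternatives, and its log2 fold change was 0.61 with at least 2 markers and 0.17 when barcodes above 5000 genes were kept (edgeR adjusted p = 0.655 and 0.993).

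Jun was the 1 called gene of 8 tested immediate early genes, which also respond to tissue dissociation. Fos, its usual partner, stood at 776, 211 and 251 CPM in OIR and at 665, 145 and 99.1 CPM in control members, highest in replicate 1 of both groups. It overlapped between the groups and was not called (log2 fold change 0.28, edgeR adjusted p = 0.958). Among the remaining genes called higher, Col23a1, a transmembrane collagen, stood at 117, 125 and 124 CPM in OIR and at 37.9, 72.3 and 13.2 CPM in control members, and rose by 1.56 (edgeR adjusted p = 0.0287). St6gal2, a sialyltransferase gene and one of the 15 with the highest ratio to the compared bipolar groups, stood at 103, 211 and 178 CPM in OIR and at 65.5, 66.3 and 39.6 CPM in control members, and rose by 1.31 (edgeR adjusted p = 0.0444). Fabp5, a fatty acid-binding protein, rose by 1.12 and the galactokinase gene Galk1 by 1.42, each with an edgeR adjusted p of 0.0444. Both lost the call in most alternatives (called in 9 of 19 and 8 of 18), and Fabp5 was at 0.71 in replicates 2 and 3 alone and at 0.72 without control replicate 1.

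Among genes called lower, 2 are genes of bipolar cell function. Gng13, the G protein gamma subunit of the mGluR6 cascade, stood at 1852, 1342 and 1538 CPM in OIR libraries 1, 2 and 3 and at 2775, 3958 and 3707 CPM in control libraries 1, 2 and 3. Every control value was above every OIR value, and Gng13 fell by 1.14 on the log2 scale (SE 0.23, edgeR adjusted p = 0.0263), 2.20-fold. Scgn, encoding the calcium sensor secretagogin, stood at 320, 339 and 349 CPM in OIR and at 527, 765 and 628 CPM in control members. The OIR values were close to each other, and Scgn fell by 0.93 on the log2 scale (SE 0.20, edgeR adjusted p = 0.0444). With a term for sex, which leaves control replicate 1 as the only control, the log2 fold change was -0.87 for Gng13 and -0.71 for Scgn. They were called in 12 and 11 of 21 alternatives. The gene Gng13 lies at chr17:25717171-25719406 and Scgn at chr13:23953456-23991214 on build GRCm38.

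The receptor gene of the cascade was not called. Grm6 stood at 522, 468 and 658 CPM in OIR libraries 1, 2 and 3 and at 428, 524 and 509 CPM in control libraries 1, 2 and 3, with overlap and a log2 fold change of 0.17 ± 0.20 (edgeR adjusted p = 0.92). Isl1 stood at 699, 796 and 927 CPM in OIR and at 639, 873 and 555 CPM in control members (0.21 ± 0.21, edgeR adjusted p = 0.905). Gnb3, the partner of Gng13, had a log2 fold change of 0.00 (edgeR adjusted p = 1). Trpm1, whose low levels are given above and which was picked after its values were seen, had a log2 fold change of -1.63 ± 0.38 with overlapping groups (edgeR adjusted p = 0.0582), and was called in 8 of 19 alternatives, the replicate block among them (edgeR adjusted p = 0.00182). Its levels rest on 33, 18 and 4 UMIs in OIR and on 154, 32 and 9 UMIs in control members. The part of rod bipolar RNA in the Trpm1 result was not tested. Of 10 tested ON bipolar genes Gng13 was the 1 called, 5 were positive and 5 negative, and the median was -0.00. Of this list 2 genes were called lower with the replicate block, and 2 without control replicate 3. Leaving out the members that held microglia or amacrine UMIs also gave 2 called lower, with 3 positive, 6 negative and a median of -0.11.

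Faim2, Car2 and Dbp were also called lower. Faim2, an inhibitor of Fas-mediated apoptosis in neurons, stood at 108, 93.6 and 76.3 CPM in OIR and at 259, 265 and 225 CPM in control members. The groups were more than their own spread apart, and Faim2 fell by 1.41 on the log2 scale (SE 0.22, edgeR adjusted p = 0.00554), called in 17 of 20 alternatives. Car2, carbonic anhydrase 2, stood at 459, 398 and 429 CPM in OIR and at 1472, 994 and 813 CPM in control members, and fell by 1.39 (SE 0.23, edgeR adjusted p = 0.0085). Dbp, an output gene of the circadian clock, stood at 227, 109 and 102 CPM in OIR and at 396, 331 and 317 CPM in control members, and fell by 1.18 (edgeR adjusted p = 0.0444), called in 10 of 20 alternatives that ran from -1.81 (without OIR replicate 1) to -0.73. Nr1d1, a clock repressor gene picked after its values were seen, had a log2 fold change of -1.36 (edgeR adjusted p = 0.0582, and 0.0238 with the block). The time of day at which retinas were taken was not given in the sources used here.

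Glul, glutamine synthetase, is a gene of Müller glia and was also called lower. It stood at 89.4, 113 and 113 CPM in OIR and at 303, 253 and 185 CPM in control members, and fell by 1.36 on the log2 scale (SE 0.23, edgeR adjusted p = 0.0085). It was called in 13 of 19 alternatives, and with at least 2 markers its log2 fold change was -0.43 (edgeR adjusted p = 0.813). The list of 10 Müller genes summed to 791, 433 and 524 CPM in OIR libraries 1, 2 and 3 and to 1110.0, 681 and 429 CPM in control libraries 1, 2 and 3. Of the 10 genes none was at 0, 4 were tested, and the most abundant, Apoe, was not called (log2 fold change 0.30, edgeR adjusted p = 0.958, and -0.48 without the members that held microglia or amacrine UMIs). The median of the 4 was -0.60, and Clu, the other gene of the list with an unadjusted p under 0.05, had a log2 fold change of -1.34 with overlapping groups (edgeR adjusted p = 0.0767). In the other kept barcodes Glul stood at 1448 CPM and in rod bipolar cells at 179 CPM, beside 176 CPM in members. The part of Müller RNA in the Glul result was not tested.

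The remaining genes called lower were Mxra7 (-1.22, edgeR adjusted p = 0.0143), Lrtm1, a leucine-rich repeat protein (-1.18, edgeR adjusted p = 0.0251), and the zinc finger gene Zfp467 (-1.27, edgeR adjusted p = 0.0287). For all 3 the groups did not overlap, which the rule for naming them asked for. A further called gene in each direction, 6330403K07Rik higher and BC030499 lower, has no gene name and is given for completeness.

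**Figure D4:**
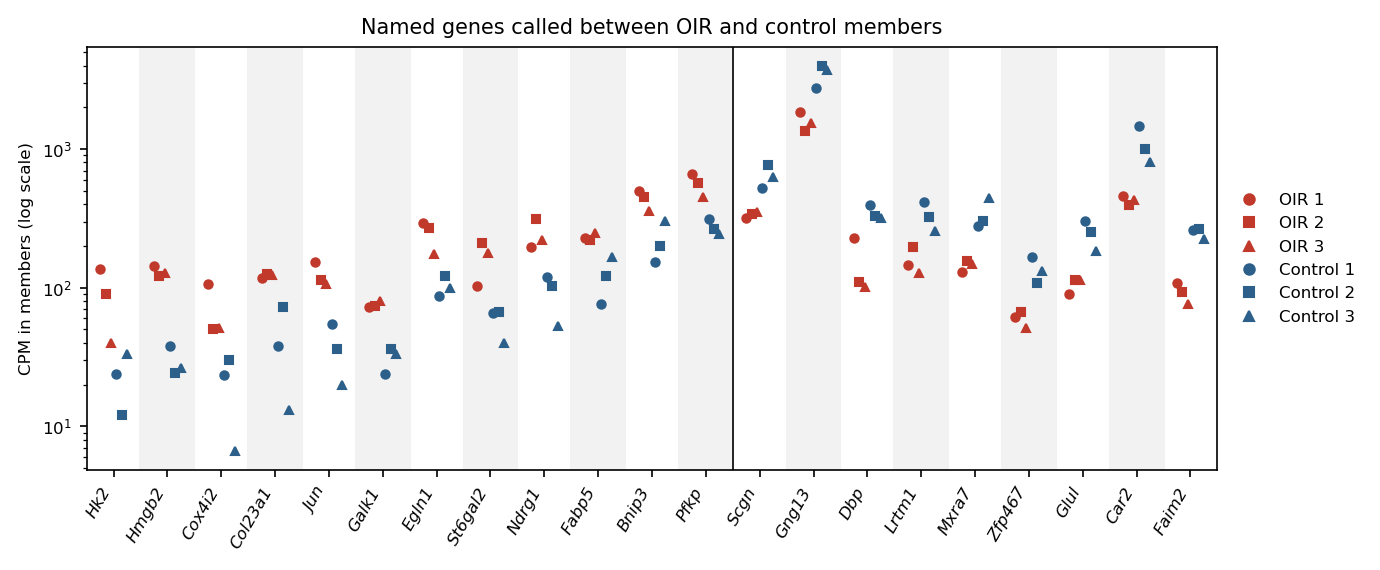
CPM (log axis) of the 21 named genes called between OIR and control members, with 1 point per library, ordered by log2 fold change and split by a line into genes higher and lower in OIR. For each gene the 3 OIR points (red) and the 3 control points (blue) do not overlap, which the rule for naming called genes asked for.

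Lists of neuronal function held no further call in the comparison of all 6 libraries. The 21 tested genes of the ribbon synapse and of transmitter release had 0 calls, with 5 positive and 16 negative and a median of -0.15, which was -0.04 in replicates 2 and 3 alone. Cplx4, a complexin of ribbon terminals, stood at 181, 179 and 193 CPM in OIR and at 280, 241 and 244 CPM in control members without passing the test (edgeR adjusted p = 0.494, picked after its values were seen). The 18 tested genes of voltage-gated channels had 0 calls and a median of -0.31 (-0.04 over the 15 tested in replicates 2 and 3 alone), and 8 GABA and glycine receptor genes had 0 calls, 2 positive and 6 negative. Of 26 adhesion and guidance genes 14 were positive and 12 negative, with 0 calls. In this list 1 was called higher without control replicate 3 and without the members that held microglia or amacrine UMIs. Among 14 transcription factor genes of bipolar cells 10 were positive, with 0 calls (1 lower in replicates 2 and 3 alone) and a median of 0.27.

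Ribosomal protein genes, 77 of them tested, had 0 calls, and 67 were positive with a median of 0.16, which was 48 of 77, with 1 called higher, in replicates 2 and 3 alone. Lists of heat shock (7 tested), stress response (6), interferon (2), metallothionein and antioxidant genes (12) also had 0 calls in edgeR. With the replicate block the last of these lists had 2 genes called higher and 1 lower, in replicates 2 and 3 alone it had 1 higher and 1 lower, and without control replicate 3, and likewise without the microglia or amacrine members, it had 1 lower. Mt3, the neuronal metallothionein, picked after its values were seen, stood at 84.9, 46.8 and 83.6 CPM in OIR and at 145, 289 and 132 CPM in control members (log2 fold change -1.26, edgeR adjusted p = 0.0553, and 0.0242 with the block). Rod genes summed to 8219, 5634 and 8092 CPM in OIR and to 11731, 7524 and 8722 CPM in control members, with 0 of 11 called, 10 negative and a median of -0.39. With the sex term, which sets OIR against control replicate 1 alone, the median was -0.88. In replicates 2 and 3 alone 7 were positive and the median was 0.24. The most abundant of them, Gngt1, had a log2 fold change of -0.41 (edgeR adjusted p = 0.804).

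Vegfa, the main angiogenic ligand of the hypoxic retina, was not among the genes called. Its level was 156, 137 and 90.9 CPM in OIR libraries 1, 2 and 3 and 116, 205 and 145 CPM in control libraries 1, 2 and 3. The groups overlapped, and the log2 fold change was -0.15 ± 0.26 (edgeR adjusted p = 0.961), with a sign that turned under 6 alternatives. Of 7 tested genes of angiogenic and guidance ligands none was called, with 2 positive and 5 negative. Of other genes that were always to be named, Gabrr1 had a log2 fold change of 0.25 (edgeR adjusted p = 0.885), and Gabrr2, Grik1 and Vsx1 were too low to be tested.

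Of other cell types, the most abundant listed gene was Gnat2 for cones (log2 fold change 0.13, edgeR adjusted p = 0.969), Prkca for rod bipolar cells (0.74, 0.364) and C1ql1 for amacrine cells (-1.02, 0.828). C1ql1 stood at 278 CPM in control replicate 3 and at 14.6 to 90.4 CPM in the other libraries. Without the members that held microglia or amacrine UMIs it stood at no more than 11.9 CPM in any library and was too low to be tested. Onecut2 for horizontal cells, Thy1 for ganglion cells, Egfl7 for endothelium, C1qb for microglia, Rdh10 for pigment epithelium and Hbb-bs for blood were too low to be tested. The endothelial list summed to between 10.9 and 43.0 CPM in the members of any library.

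The same contrast was set beside that of other bipolar groups, which come from the same libraries. Egln1 had a log2 fold change of 1.44 in rod bipolar cells, 1.26 in the Grik1 group and 0.94 in the Kcng4 group, of which the first was called (edgeR adjusted p = 0.00353). Bnip3, Hk2, Ndrg1 and Cox4i2 were also called higher in rod bipolar cells (1.28, 1.53, 1.55 and 1.89, edgeR adjusted p = 0.00347, 0.00869, 0.00648 and 0.0104). Pfkp was not called there (0.99, edgeR adjusted p = 0.0744). Glul was called lower in rod bipolar cells (-1.02, edgeR adjusted p = 0.0165). Hmgb2 was called higher in all 3 groups, with 1.51, 1.80 and 1.83. Faim2 was called lower in rod bipolar cells (-1.81) and in the Kcng4 group (-1.96) and was too low to be tested in the Grik1 group. Gng13 had -0.62 in rod bipolar cells and -1.19 in the Kcng4 group, neither of them called (edgeR adjusted p = 0.2 and 0.101). In all, 159 of 9692 genes were called in rod bipolar cells (1.64%, 0.794% higher and 0.846% lower), 4 of 4180 in the Grik1 group (0.0957%, 0.0718% higher and 0.0239% lower) and 9 of 5805 in the Kcng4 group (0.155%, 0.0517% higher and 0.103% lower), at unequal numbers of cells. In the sums over all other kept barcodes, 0 of 15136 genes were called in edgeR, with 1163 at an unadjusted p under 0.05, and DESeq2 called 123 higher and 91 lower. With the replicate number as a block, which paired these sums, edgeR called 140 higher and 149 lower.

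**Figure D5:**
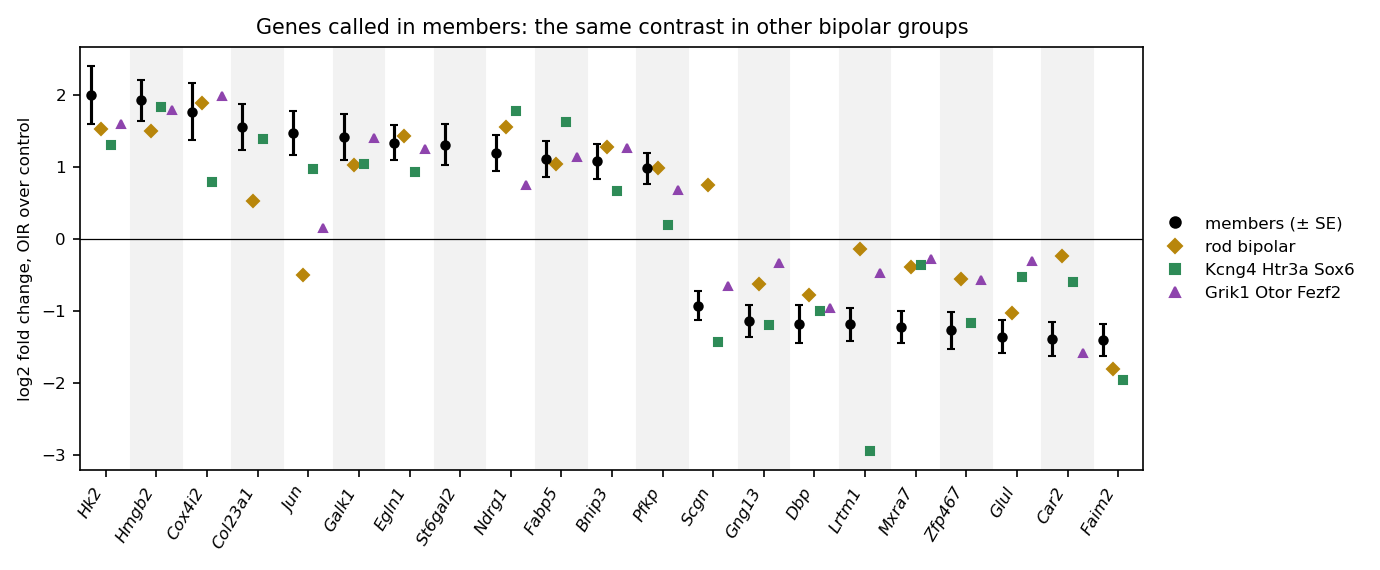
Log2 fold change (OIR over control) of the 21 named genes in members (black, ± SE) and in rod bipolar cells, the Kcng4 group and the Grik1 group where the gene was tested. Egln1, Hmgb2, Bnip3, Fabp5, Hk2, Ndrg1, Pfkp, Galk1 and Cox4i2 lie above 0 in all 4 groups, whereas Jun and Scgn lie on both sides of 0.

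Whether OIR acted differently in members was tested as an interaction of cell group and condition with the library as a block. Against rod bipolar cells 27 of 9992 genes were called (0.27%), 14 with a higher OIR effect in members (0.14%) and 13 with a lower one (0.13%). Car2, already named among the genes lower in members, stood at 459, 398 and 429 CPM in OIR against 1472, 994 and 813 CPM in control members, and at 442, 395 and 373 CPM in OIR against 519, 469 and 397 CPM in control rod bipolar cells. Its interaction was -1.14 ± 0.18 (edgeR adjusted p = 0.00122), and it was called in 10 of 10 alternatives. In the Grik1 group Car2 was also lower in OIR, at 473, 315 and 186 CPM against 1163, 1069 and 740.4 CPM in controls, and the interaction with that group was not called (0.21 ± 0.23, edgeR adjusted p = 1). Ly6h, a GPI-anchored modulator of nicotinic receptors, stood at 350, 367 and 534 CPM in OIR and at 208, 428 and 436 CPM in control members. In rod bipolar cells it stood at 43.6, 82.5 and 136 CPM in OIR and at 11.0, 15.5 and 16.9 CPM in controls. The interaction was -2.07 ± 0.27 (edgeR adjusted p = 0.0001). OIR and control values overlapped in members and were apart in rod bipolar cells.

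Aldoc, an aldolase, showed the same arrangement as Ly6h. It stood at 792, 304 and 382 CPM in OIR and at 641, 530 and 648 CPM in control members, and at 359, 206 and 207 CPM in OIR and 120, 142 and 106 CPM in control rod bipolar cells. The members overlapped while the rod bipolar cells did not, and the interaction was -1.40 ± 0.20. Uchl1 (-1.38), Cabp2 (-1.76) and Piwil4 (-5.57) were the others named with a lower effect. Mean Uchl1 was 298 CPM in OIR and 405 in control members, and 83.7 and 38.2 CPM in rod bipolar cells. Mean Cabp2 was 173 and 215 CPM in members, and 39.7 and 14.0 CPM in rod bipolar cells. Piwil4 had no more than 14 UMIs per library in members. Its mean in rod bipolar cells was 21.4 CPM in OIR and 0.412 in controls. For Mir670hg (5.10), the host transcript of a microRNA, members stood at 26.5, 46.8 and 32.7 CPM in OIR and at 26.9, 12.05 and 6.61 CPM in controls, and rod bipolar cells between 0.423 and 1.09 CPM in OIR and between 8.47 and 17.3 CPM in controls.

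The genes named with a higher effect included the microglia genes C1qb (5.59), C1qc (4.68), Ctss (4.49) and C1qa (3.43). Their UMIs in members lay mainly in OIR replicate 1, where 81 of C1qb were counted against 1 in the other OIR libraries and 4 in the controls. Without the members that held microglia or amacrine UMIs, the C1qa interaction was -2.37 without a call (edgeR adjusted p = 0.861), and C1qb, C1qc and Ctss were too low to be tested. The count then was 9 higher and 17 lower. Trpm1 (-1.74, edgeR adjusted p = 0.00696), Jun (1.82, 0.00295) and Fos (2.20, 0.00612), named after their values were seen, were also called. Mean Fos in rod bipolar cells was 57.6 CPM in OIR and 193 CPM in controls, while Fos was not called in members.

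Against the Grik1 group 3 of 5339 genes were called (0.0562%), 2 with a higher OIR effect in members (0.0375%) and 1 with a lower one (0.0187%). Pcp2, the Go-binding gene, stood at 3391, 2868 and 3108 CPM in OIR and at 3544, 3994 and 3575 CPM in control members, and at 223, 98.9 and 172 CPM in OIR and 536, 827 and 310 CPM in controls of the Grik1 group. Its interaction was 1.40 ± 0.24 (edgeR adjusted p = 0.0371). The dopamine receptor gene Drd4 had an interaction of 1.63 ± 0.31 (edgeR adjusted p = 0.042). Its mean was 153 CPM in both OIR and control members, and 71.3 CPM in OIR and 241 CPM in controls of the Grik1 group. The third gene was the unnamed BC030499.

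Against the Kcng4 group, a comparison added after the data were seen, 2 of 6248 genes were called (0.032%). One was Lrtm1, at 146, 195 and 127 CPM in OIR and 414, 325 and 258 CPM in control members, and at 42.1, 20.6 and 41.1 CPM in OIR and 404, 196 and 172 CPM in controls of the Kcng4 group. It fell in both groups, and the interaction was 1.76 ± 0.29 (edgeR adjusted p = 0.0178). The other was the rule gene Cntn5, for which no test is given. None of the 4 called hypoxia genes had an interaction call in any of the 3 comparisons, where a missed threshold does not show that the effects are alike.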

How the data were processed

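Retinas of 3 OIR and 3 control samples, each from 2 mice, were dissociated and sequenced with a droplet 3′ kit that counts unique molecular identifiers. The authors deposited raw UMI counts per gene and barcode for 31053 genes, filtered to cell-containing barcodes and not normalized. The matrix headers give software version 3.1.0 and the labels name build mm10. The members, the compared cell groups and the gene lists were chosen with earlier results of these data known. Marker lists of the cell types and pathways were written by hand.

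Counts were summed per library and cell group and given as CPM. Samples were the replicates, and nothing in the sources ties a replicate number to a litter or day. Tests used edgeR 4.0.16 (TMM, filterByExpr, glmQLFit and glmQLFTest) with limma 3.58.1 in R 4.3.3, adjusted over all genes tested. The interaction tests had the library as a block. SE values for edgeR were derived as the size of the log2 fold change divided by the square root of the test's F statistic. Shares were tested by exact permutation with SciPy 1.17.1, in Python 3.11.15 with numpy 2.4.6 and pandas 2.3.3, and figures used matplotlib 3.10.9. The steps were tested on simulated data. Gene positions came from a mouse annotation on GRCm38. Depth per library is given with the results.

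Named were the 12 called genes with the lowest p in each direction among those whose groups did not overlap (without rule, sex-linked, mitochondrial and ribosomal protein genes and unnamed symbols), called genes of the lists, Vegfa, Grik1, Isl1, Grm6, Vsx1, Gabrr1, Gabrr2, the most abundant gene of each list of another cell type, and 6 genes per direction of each interaction. Genes outside this rule are said to be picked after their values were seen. Alternatives were DESeq2 1.42.0, RLE factors, no filter on low counts, each library left out, a replicate block, other marker and quality limits, thinning to 1000 UMIs, a term for sex, and replicates 2 and 3 alone. Leaving out members with at least 10 microglia or amacrine UMIs was added after the data were seen. For the sums over other barcodes, same-numbered libraries deviated together (r = 0.672, 0.301 and 0.507), although OIR replicate 3 also did so with control replicate 2 (0.399) and OIR replicate 2 with control replicate 3 (0.239), so that the numbers are a hint of pairing from the data only, and blocked results are printed where they change a call or a count. No deposited column was left unmapped. Some genes are not reported here.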

Additional observations from a re-analysis of the deposited data

Results flagged for a closer look

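Interaction tests in edgeR found genes whose OIR effect differed between members and a compared group, given as the difference of log2 fold changes. Against rod bipolar cells these were C1qb (5.59), Mir670hg (5.10), C1qc (4.68), Ctss (4.49), C1qa (3.43), Ly6h (-2.07), Aldoc (-1.40), Piwil4 (-5.57), Car2 (-1.14), Uchl1 (-1.38) and Cabp2 (-1.76), and, named after their values were seen, Trpm1 (-1.74), Jun (1.82) and Fos (2.20). Against the Grik1 group they were Pcp2 (1.40) and Drd4 (1.63), and against the Kcng4 group Lrtm1 (1.76). Mir670hg, Ly6h, Aldoc, Piwil4, Car2, Uchl1 and Cabp2 were called in 10 of 10 alternatives. The sizes for Mir670hg and Piwil4 rest on values near 0 in rod bipolar cells. Mir670hg was at 0.423 to 1.09 CPM in OIR and Piwil4 at 0 to 0.647 CPM in control rod bipolar cells. In members of control replicates 2 and 3 Mir670hg had 2 and 1 UMIs. Fewer calls were made for Jun, Fos and Pcp2 (8 of 10 each), Drd4 (7 of 10), and Trpm1 and Lrtm1 (6 of 10 each). DESeq2 lost all of these but Pcp2, and its adjusted p was 0.326 for Trpm1 and 0.938 for Fos. Without the members that held microglia or amacrine UMIs, C1qa was not called and C1qb, C1qc and Ctss were too low to be tested.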

How the results depend on the processing

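The number of genes called between OIR and control members (13 higher and 10 lower) moved with most settings. In this order it was 2 and 7 with DESeq2, 48 and 48 with no filter on low counts, 27 and 26 in members with a bipolar gene, 0 and 1 in members with at most 2 UMIs of other lists, 2 and 4 outside the top UMI counts, 0 and 0 with no upper limit on genes and 0 and 0 after thinning (43 at an unadjusted p under 0.05). It was 29 and 24 without members of 10 or more microglia or amacrine UMIs and 20 and 33 in replicates 2 and 3. With at least 4 markers 21 genes were lower, and with at least 2 markers 5. Leaving out 1 library gave 1 to 24 higher and 0 to 35 lower. With the replicate number as a block 27 were higher and 21 lower, and same-numbered libraries correlated weakly in the sparse sums of members (r = 0.172, 0.0364 and 0.0575).

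In other kept barcodes (0 calls in edgeR), DESeq2 called 123 and 91, the replicate block, which paired these sums, 140 and 149, and leaving out 1 library 0 to 6 and 0 to 13. Against rod bipolar cells the counts of interactions were 9 higher without microglia or amacrine members, 1 and 6 with DESeq2, 33 and 31 with no filter, and 7 to 20 and 10 to 25 with 1 library left out. Against the Grik1 group they were 4 lower without those members, 1 higher with DESeq2, 21 and 22 with no filter, and 0 to 7 and 1 to 4. Against the Kcng4 group they were 3 lower without those members, 0 higher with DESeq2 (41 at an unadjusted p under 0.05), 12 and 16 with no filter, and 0 to 3 in both directions. The difference in share ran from -0.794 to 0.617 percentage points with 1 library left out, positive without control replicate 1.

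The sign of the log2 fold change turned for genes that were not called in members. Vegfa ran from -0.42 to 0.045 with 1 library left out (0.02 when OIR replicate 3 and 0.045 when control replicate 2 was dropped), and was 0.027 with at least 2 markers, 0.34 with at most 2 UMIs of other lists, 0.16 outside the top UMI counts and 0.14 with the sex term. Grm6 was -0.0395 with at most 2 such UMIs and -0.30 after thinning, and Gabrr1 was -0.0020 with the sex term. Gnat2 ran from -0.53 (without OIR replicate 1) to 0.37 with 1 library left out, and was -0.0168 with the sex term and -0.32 in replicates 2 and 3. Apoe ran from -1.03 (without OIR replicate 1) to 2.05, with -0.05 without control replicate 3, and was -0.28 outside the top UMI counts, -0.43 with no upper limit on genes, -0.48 without microglia or amacrine members and -0.51 with the sex term. C1ql1 ran from -2.02 to 0.53 (without control replicate 3) and was 1.53 with the sex term. Fos ran from -0.69 (without OIR replicate 1) to 1.87, with -0.01 and -0.07 without control replicates 2 and 3, and was -0.64 with the sex term. The C1qa interaction was -2.37 without microglia or amacrine members and ran from -0.19 (without OIR replicate 1) to 4.65 with 1 library left out. The causes were not tested. With 20 to 38 members in 4 of the libraries, many values rest on few UMIs.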
